A study of Rattus norvegicus with 10 samples.

Results

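Transcripts of 38 genes of S phase and mitosis were compared between the colon epithelium of rats fed cholate and that of control rats. The genes were chosen by symbol for their known roles, though earlier results of these data were known when they were chosen. All 38 were found among the 23422 gene rows of the deposited table, and all 38 passed the filter on low counts, which 12385 genes passed in total. They comprised 11 genes of DNA replication and nucleotide supply, 3 regulators of the step from G1 to S phase, and 24 genes of G2 and mitosis.

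RNA came from distal colon epithelial cells of male Wistar Munich rats, released from the tissue with EDTA. All 12 rats of the study were kept singly in metabolic cages on standard chow for 3 days, after which 6 received that chow with 1% w/w sodium cholate, the salt of a primary bile acid, and the diets lasted 10 days. Sequencing took the 5 rats per diet whose extracts were richest in RNA, so the choice was not random, and left control rats 1, 2, 5, 6 and 9 and cholate rats 3, 4, 7, 8 and 11. Each library came from 1 rat, and the sources used here do not give the age of the animals.

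A cell that divides copies its DNA in S phase and separates the copies in mitosis. The G1/S regulators, cyclin D, cyclin E and E2F factors, switch on the genes of replication: the Mcm helicase opens the helix, Pcna clamps the polymerase to it, and ribonucleotide reductase, thymidylate synthase and thymidine kinase supply its building blocks. Cyclins A and B with the kinase Cdk1 then drive entry into mitosis, in which Aurora and Polo kinases, kinesin motors and kinetochore proteins build the spindle, and Cdc20 with the anaphase-promoting complex ends it. In the colon, division takes place in the lower part of the crypt, and the cells leave the cycle as they move up to become surface colonocytes. Genes of S phase are commonly switched on through E2F sites in their promoters, and genes of G2 and mitosis through a CHR element (cell cycle genes homology region) together with CCAAT boxes.

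RefSeq promoter windows on the GRCr8 build, running from 250 bases before to 50 bases after the start of a gene, were matched by gene ID for 29 of the 38 genes. They were searched on both strands for the E2F core (TTCCCGC, the variant TTGGCGC, a further variant TTCGCGC, or the last variant TTGCCGC), for the CHR (TTTGAA or its variant TTCGAA) and for the CCAAT box. An E2F core stood in 7 of 9 replication windows and 4 of 19 mitotic ones, against 9.52% of all 33469 windows. The CHR stood in 3 of 9 replication and 13 of 19 mitotic windows, against 19.7% of all windows. CCAAT stood in 6 of 9 replication and 16 of 19 mitotic windows, against 37.5%. A match in these windows is a description of the letters and not evidence of binding, and a missing match says only that these letters are not in the window. Windows of Aurkb, Ccna2, Ccnd1, E2f1, Foxm1, Mcm4, Rrm2, Tpx2 and Ube2c were not used here.

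The 250 bases before the start are printed for 6 genes on which the comparison of the roles turns, with whole motif matches in capitals (overlapping matches run together). Tk1 (chr10:103544778-103545027, minus strand), Mcm5 (chr19:13488563-13488812, plus strand) and Mcm6 (chr13:42404353-42404602, minus strand) stand for the replication genes that passed the test. Ccnb1 (chr2:33655226-33655475, minus strand) and Cdc20 (chr5:137255800-137256049, minus strand) stand for the mitotic genes with the largest fitted changes with all rats included. Mki67 (chr1:199952594-199952843, minus strand) encodes the Ki-67 antigen, the usual marker of dividing cells, and did not pass with diet as the only term.
Tk1: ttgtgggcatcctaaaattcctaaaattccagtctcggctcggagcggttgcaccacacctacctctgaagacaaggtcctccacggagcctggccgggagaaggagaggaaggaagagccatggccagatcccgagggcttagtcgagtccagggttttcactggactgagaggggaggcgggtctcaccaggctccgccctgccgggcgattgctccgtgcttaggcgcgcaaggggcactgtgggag
Mcm5: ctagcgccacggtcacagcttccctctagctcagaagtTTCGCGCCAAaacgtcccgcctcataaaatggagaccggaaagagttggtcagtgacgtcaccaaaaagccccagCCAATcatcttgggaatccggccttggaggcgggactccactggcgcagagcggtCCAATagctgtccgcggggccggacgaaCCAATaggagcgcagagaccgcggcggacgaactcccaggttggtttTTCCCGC
Mcm6: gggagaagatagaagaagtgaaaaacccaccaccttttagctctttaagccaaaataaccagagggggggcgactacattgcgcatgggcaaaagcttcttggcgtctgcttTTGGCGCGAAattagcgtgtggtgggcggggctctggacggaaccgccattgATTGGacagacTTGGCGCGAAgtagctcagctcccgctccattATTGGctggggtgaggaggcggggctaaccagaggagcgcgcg
Ccnb1: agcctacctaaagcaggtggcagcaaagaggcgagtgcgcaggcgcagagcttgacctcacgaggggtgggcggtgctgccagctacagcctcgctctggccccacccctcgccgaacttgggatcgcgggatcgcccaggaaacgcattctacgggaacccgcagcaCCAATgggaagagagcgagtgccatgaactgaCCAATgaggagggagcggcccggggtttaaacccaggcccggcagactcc
Cdc20: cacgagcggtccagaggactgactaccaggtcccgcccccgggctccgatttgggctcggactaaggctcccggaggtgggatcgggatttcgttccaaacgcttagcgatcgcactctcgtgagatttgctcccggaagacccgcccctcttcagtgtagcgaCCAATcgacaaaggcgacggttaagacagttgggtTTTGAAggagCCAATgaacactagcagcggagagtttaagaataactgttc
Mki67: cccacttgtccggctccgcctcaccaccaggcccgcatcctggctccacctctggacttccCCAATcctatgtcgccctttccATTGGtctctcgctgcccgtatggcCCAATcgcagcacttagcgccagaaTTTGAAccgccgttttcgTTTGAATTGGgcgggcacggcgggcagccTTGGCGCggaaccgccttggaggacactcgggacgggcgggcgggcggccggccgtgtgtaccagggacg
The Mcm5 stretch held 3 E2F core matches, 2 of which overlapped on opposite strands, with 3 CCAAT boxes and no CHR. That of Cdc20 held 1 CHR, 2 CCAAT boxes and no E2F core. Mki67 held all 3 motifs, with 1 E2F core, 2 CHR elements and 4 CCAAT boxes. Ccnb1 held 2 CCAAT boxes alone, and Tk1 held none of the letters searched. Tk1 and Ccnb1, the 2 genes that passed the strict rule, thus did not share a motif in these stretches.

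The shallowest library, cholate rat 11, held 14337356 counts and the deepest, cholate rat 4, held 45285762. Control rats 5 and 9 and cholate rats 8 and 11 stood apart from the other 6 libraries on the first principal component of log2 CPM with the diet means removed, which held 66.4% of the variance over 12147 genes outside every list used here. The transcripts of long genes (at least 6000 exonic bases, 1963 genes) were lower, relative to those of short genes (at most 1500 bases, 2212 genes), in those 4 libraries. With the diet means removed, the difference of long and short genes was -0.96 in control rat 9 and -0.98 in cholate rat 8 on the log2 scale. It was -0.60 in cholate rat 11, -0.13 in control rat 5 and 0.33 to 0.58 in the other 6. These values set each rat against its own diet and do not compare the diets. Both diets hold libraries of each kind, and the results below are also given with this division as a term in the fit and within each set. The division was drawn from these same libraries, as the sign of that component. A fit with it as a term therefore takes up spread that defined it. Genes that pass only with the term are thus described, and the term is not independent support for them.

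Levels are CPM (reads of a gene scaled to a fixed library total) on TMM-scaled library sizes, as mean ± SD over 5 rats per diet unless said otherwise. Values per rat stand in the order control rats 1, 2, 5, 6 and 9, then cholate rats 3, 4, 7, 8 and 11. A change is the log2 of the fold between cholate and control, and its standard error (SE) is approximate. Adjusted p values are from edgeR's quasi-likelihood test with Benjamini-Hochberg adjustment over all 12385 genes. A gene passed the strict rule, which is the authors' own, at an adjusted p under 0.01 and a fold over 2, and the second rule at an adjusted p under 0.05 with any fold. Below, "rose" and "fell" refer to the second rule.

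Cell cycle transcripts were higher on cholate, by less than 2-fold for most of them. Thymidine kinase Tk1 and cyclin B1, Ccnb1, passed the strict rule, 2 of 38 genes, and none was lower. Among all genes tested that rule called 3.21%, 1.10% higher and 2.12% lower. By the second rule 18 of the 38 rose and none fell, against 6.48% of all genes tested that rose and 7.28% that fell. The fitted change was above 0 for 36 of the 38 genes, against 48.9% of all genes. Its median over the 38 was 0.57, with a range of -0.38 to 1.15, and the median over all genes tested was -0.01. In bulk RNA, more cells in cycle and more transcript per cycling cell cannot be told apart.

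The number that rose rested on the rats included. Omitting control rat 1, 2 or 6 left 7, omitting cholate rat 4 left 10, omitting cholate rat 7 left 11 and omitting cholate rat 3 gave 21, while the median change ran from 0.53 to 0.65 over all 10 omissions. Mcm5, Tk1, Ccne1, Ccna2, Ccnb1 and Bub1 passed the second rule in all 10 of these fits. By the strict rule none passed without control rat 1 or 2, where 1.54% and 1.34% of all genes did, against 3.21% with all rats. That rule left 1 gene without control rat 6, cholate rat 4 or cholate rat 7, and 5 genes without cholate rat 3. With the division of the libraries as a term, 25 rose at a median of 0.58, the 7 added genes being Mcm3, Mcm7, Pcna, Mki67, Bub1b, Aurka and Cenpe. Among the 6 libraries of the larger set 23 rose at a median of 0.67, and among the other 4 libraries, with 2 rats per diet, 4 rose (Tk1, Ccnb1, Cdc20 and Plk1) at a median of 0.43. Of all genes 17.3% rose with the term, 18.7% among the 6 libraries and 2.04% among the 4, so calls over all genes moved the same way.

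**Figure D1:**
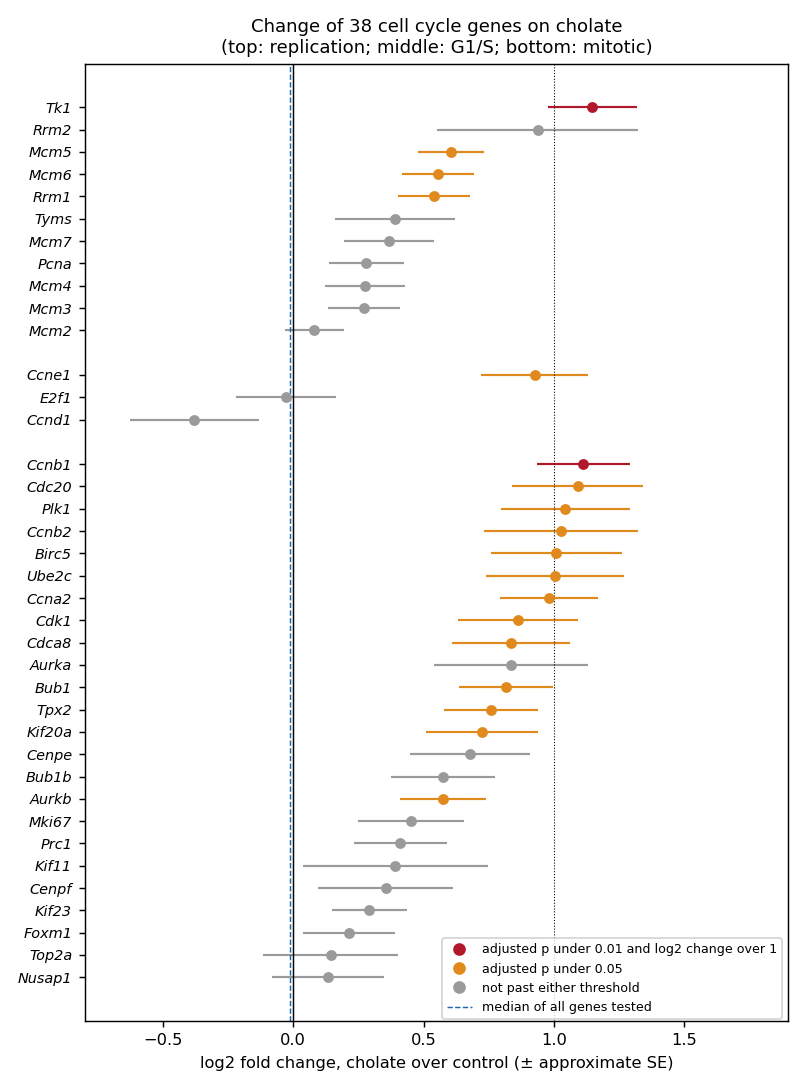
Log2 fold change of cholate over control for each of the 38 genes, grouped by role, with bars of 1 SE to either side and colour for the test passed. All but Ccnd1 and E2f1 lie above 0, and the mitotic genes span 0.13 to 1.11 against 0.08 to 1.15 for the replication genes.

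Replication genes had fitted changes above 0 in 11 of 11 cases, with a median of 0.39, and 4 of them rose: Tk1, Mcm5, Mcm6 and Rrm1. Thymidine kinase 1, which returns thymidine to the nucleotide pool in S phase, had the largest fitted change of the 38 genes with all rats included, close to that of Ccnb1. Among the 6 libraries of the larger set Rrm2 and Ccne1 had larger ones, and among the other 4 Ccnb2, Cdc20 and Ccnb1 did. Tk1 (Entrez 24834, rn6 chromosome 10, 106817556 to 106828888, minus strand) stood at 38.9, 43.2, 51.9, 36.5 and 44.8 CPM in the controls and at 68.2, 107, 99.2, 121 and 81.3 CPM on cholate. Every cholate rat lay above every control, and the lowest was rat 3. The mean rose from 43.1 ± 5.95 to 95.4 ± 20.9 CPM, a change of 1.15 (SE 0.17, adjusted p = 0.00268), and the strict call was lost without control rat 1 or control rat 2.

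The 6 Mcm genes encode the subunits of 1 ring, the replicative helicase, and their changes ran from 0.08 to 0.60 with a median of 0.32. Mcm5 (Entrez 291885, chromosome 19, 14523482 to 14561281, plus strand) stood at 34.6, 42.7, 48.7, 47.5 and 39.3 CPM in controls and at 65.8, 71.6, 63.7, 61.8 and 60.5 CPM on cholate. The cholate rats lay close together and wholly above the controls, and the change was 0.60 (SE 0.13, adjusted p = 0.011). Mcm6 stood at 46.8, 50.9, 72.9, 58.8 and 62.4 CPM and then at 82.2, 87.2, 74.8, 93.7 and 90.6 CPM, also without overlap, though control rat 5 came within 2 CPM of cholate rat 7 (0.55, SE 0.14, adjusted p = 0.0241). The call of Mcm6 was lost without control rat 1, 2 or 6 or cholate rat 4. Mcm2, Mcm3, Mcm4 and Mcm7 did not pass, with changes of 0.08, 0.27, 0.28 and 0.37 and adjusted p from 0.186 to 0.693. Mcm2 had the smallest change of the replication genes, 38.2 ± 3.76 against 40.4 ± 1.25 CPM. Mcm3 and Mcm7 passed the second rule once the library division was a term (adjusted p = 0.0494 and 0.0112), with changes still at 0.27 and 0.37. Mcm3 overlaps an antisense gene, and the sources used here do not say whether counting used the strand.

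Ribonucleotide reductase makes deoxynucleotides from 2 kinds of subunit, Rrm1 and Rrm2. Rrm1 stood at 74.4, 79.0, 87.1, 81.7 and 80.1 CPM in controls and 94.3, 132, 137, 129.6 and 92.1 CPM on cholate. Its groups did not overlap, and cholate rats 3 and 11 lay just above the controls (0.54, SE 0.14, adjusted p = 0.0268, lost on omitting 7 of the 10 rats in turn). Rrm2 had 250 counts over the 5 controls and 564 over the 5 cholate rats, or 0.877, 2.15, 2.98, 1.83 and 1.2 CPM against 2.25, 5.15, 4.82, 2.13 and 2.88 CPM. Its fitted change of 0.94 was the second largest of the replication genes, but its groups overlapped widely and it did not pass (SE 0.39, adjusted p = 0.134). Per kilobase of exon the control level of Rrm2 was 0.715 CPM, the lowest of the 38 genes, against 26.7 CPM per kilobase for Rrm1. Why so few reads were assigned to Rrm2, and to Ccnb2 described with the cyclins, was not tested, and their changes are the less certain for it. Among the 6 libraries of the larger set Rrm2 had a change of 1.37 (adjusted p = 0.0286), and among the other 4 one of 0.21 (adjusted p = 0.867).

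The polymerase clamp Pcna and thymidylate synthase Tyms did not pass with diet as the only term. Pcna stood at 122 to 169.8 CPM in controls and 139 to 214 CPM on cholate, and its 2 groups overlapped (0.28, SE 0.14, adjusted p = 0.229). With the library division as a term it passed the second rule at 0.27 (adjusted p = 0.0199). Pcna had the highest control level of the 38 genes per kilobase of exon, 126 CPM per kilobase. Tyms stood at 15.3 to 32.2 CPM in controls and 24.2 to 42.9 CPM on cholate (0.39, SE 0.23, adjusted p = 0.294) and overlaps the antisense gene Yes1. Without the Mcm genes the other 5 replication genes had a median change of 0.54.

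Of the 3 G1/S regulators only cyclin E1, the partner of Cdk2 at the start of S phase, rose. Ccne1 (Entrez 25729, chromosome 1, 94485830 to 94495112, minus strand) stood at 6.17, 8.89, 13.0, 7.82 and 11.6 CPM in controls and at 18.6, 18.7, 16.6, 17.0 and 19.3 CPM on cholate. The cholate rats spanned less than 3 CPM and lay above every control (0.93, SE 0.20, adjusted p = 0.0141). Its change was 1.27 among the 6 libraries of the larger set (adjusted p = 0.000858) and 0.52 among the other 4 (adjusted p = 0.304). Cyclin D1, Ccnd1, which answers growth signals in G1, stood at 95 ± 29.4 and 73.0 ± 17.5 CPM with wide overlap (-0.38, SE 0.25, adjusted p = 0.351). The factor E2f1, which switches on many replication genes, stood at 8.72 ± 2.06 and 8.56 ± 0.947 CPM (-0.03, SE 0.19, adjusted p = 0.942), and the sign of its change turned without control rat 1 or 5 or cholate rat 4.

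Mitotic genes had fitted changes above 0 in 24 of 24 cases, with a median of 0.74, and 13 of them rose. Among the 7 genes of all 38 with a fitted change over 1, Tk1 was the one from replication and 6 were mitotic: Ccnb1, Cdc20, Plk1, Ccnb2, Birc5 and Ube2c. Of these 6 only Ccnb1 passed the strict rule.

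The cyclins that drive entry into mitosis were among the mitotic genes with no overlap between the diets. Ccnb1 (Entrez 25203, chromosome 2, 30782133 to 30791106, minus strand) stood at 57.4, 56.0, 63.4, 56.6 and 68.5 CPM in controls and at 83.3, 139, 151, 166 and 114 CPM on cholate. The control rats lay close together and the cholate rats were spread, with rat 3 again the lowest. The mean rose from 60.4 ± 5.42 to 131 ± 32.7 CPM, a change of 1.11 (SE 0.18, adjusted p = 0.00332). Its strict call was lost on omitting any of 5 rats (control rats 1, 2 and 6 and cholate rats 4 and 7). Cyclin A2, Ccna2, which acts in S phase and at entry to mitosis, stood at 37.8, 33.5, 35.1, 33.6 and 29.6 CPM and then at 48.9, 84.1, 87.3, 65.7 and 48.5 CPM. It rose by 0.98 (SE 0.19, adjusted p = 0.00792), under the fold limit of the strict rule, and overlaps the antisense gene Exosc9. Ccnb2, a second B cyclin, was scarce, at 1.6 ± 0.358 and 3.28 ± 1.19 CPM from 211 and 412 counts. It rose by 1.03 (SE 0.30, adjusted p = 0.0422), its lowest cholate value of 2.07 lay next to the highest control value of 2.01, and the call was lost on omitting any of 8 rats.

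Kinases of mitotic entry and their transcription factor gave a mixed picture. Cdk1, the kinase that B cyclins activate, stood at 54.6, 54.9, 70.5, 48.3 and 74.4 CPM in controls and 63.9, 105, 108, 168 and 105 CPM on cholate (0.86, SE 0.23, adjusted p = 0.0317). Polo-like kinase Plk1 stood at 30.5, 29.7, 46.1, 25.7 and 41.4 CPM and then at 40.2, 69.2, 75.6, 104 and 68.6 CPM (1.04, SE 0.25, adjusted p = 0.0195). For both, cholate rat 3 lay among the controls and the other 4 cholate rats lay above all of them. Both calls were lost without control rat 1, 2 or 6, and that of Cdk1 also without cholate rat 4 or 7. Aurka, the Aurora kinase of the spindle poles, had a change of 0.83 and did not pass (SE 0.30, adjusted p = 0.0865, or 0.00898 with the library division as a term), with cholate rat 3 at 12.1 CPM and the other 4 at 24.8 to 40.2 CPM against 10.0 to 19.7 CPM in controls. Tpx2, the activator of this kinase, rose by 0.76 (SE 0.18, adjusted p = 0.0195). Foxm1, a factor that switches on mitotic genes, stood at 25.9 ± 4.82 and 30.1 ± 5.51 CPM (0.21, SE 0.18, adjusted p = 0.472). Aurka and Foxm1 overlap other genes.

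The 3 genes of the chromosomal passenger complex that are among the 38 rose, against 6.48% of all genes tested. They were the kinase Aurkb (0.57, adjusted p = 0.0426), survivin Birc5 (1.01, adjusted p = 0.0241) and borealin Cdca8 (0.84, adjusted p = 0.0329). Birc5 stood at 21.0, 24.1, 25, 19.5 and 36.0 CPM in controls and 31.3, 45.5, 53.5, 78.8 and 43.7 CPM on cholate. Cholate rat 3 was the one that lay within the control range, and so it was for Aurkb and Cdca8. Aurkb lost its call on omitting any rat but cholate rat 3 or 11. Cdca8 lost its call without control rat 1, 2 or 6 or cholate rat 4, 7 or 8. That of Birc5 was lost without control rat 1, 2 or 6. Bub1, a kinase of the spindle checkpoint, stood at 48.9, 47.6, 47.7, 38.9 and 40.1 CPM and then at 57.1, 90.3, 109, 73.2 and 63.5 CPM. Bub1 rose without overlap (0.82, SE 0.18, adjusted p = 0.0146), while the related checkpoint gene Bub1b had a change of 0.58 and did not pass (SE 0.20, adjusted p = 0.0823, or 0.0315 with the library division as a term). The kinetochore genes Cenpe and Cenpf did not pass either, at 0.68 (SE 0.23, adjusted p = 0.0739) and 0.35 (SE 0.26, adjusted p = 0.409). Cenpe passed with that term (adjusted p = 0.0171).

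Both genes of the anaphase-promoting machinery among the 38 rose, against 6.48% of all genes tested. None of the 16 genes of anaphase and mitotic exit read below, which include subunits of the anaphase-promoting complex, passed (median 0.23). Cdc20, which targets the anaphase-promoting complex to its substrates, stood at 51.4, 51.1, 63.4, 49.8 and 84.3 CPM in controls and at 74.6, 110.0, 127, 200.4 and 127 CPM on cholate. Control rat 9 overlapped with cholate rat 3, and Cdc20 rose to 128 ± 45.9 CPM on cholate (1.09, SE 0.25, adjusted p = 0.0164). Cdc20 lost the call on omitting control rat 1 and kept it on omitting any of the other 9 rats. Ube2c, the ubiquitin-conjugating enzyme of the same complex, stood at 22.0, 18.6, 30.7, 17.6 and 29.8 CPM and then at 28.1, 43.8, 46.8, 76.3 and 43.1 CPM (1.00, SE 0.26, adjusted p = 0.0297). Cholate rat 3 again lay within the control range, and this call was lost without control rat 1, 2 or 6 or cholate rat 4 or 7.

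Motors and bundling proteins of the spindle mostly did not pass. The kinesin Kif20a, needed for cytokinesis, rose by 0.72 (SE 0.21, adjusted p = 0.0462), with cholate rat 3 at 41.9 CPM, under all 5 controls, and the others at 76.1 to 105 CPM. That call held on omitting cholate rat 3 but was lost on omitting any of the other 9 rats, and Kif20a overlaps the antisense gene Cdc23. Kif23 and Prc1, which act at the same structure, had changes of 0.29 (adjusted p = 0.209) and 0.41 (adjusted p = 0.151), and the microtubule protein Nusap1, which overlaps Oip5, had 0.13 (adjusted p = 0.745). Kif11, the motor that pushes the spindle poles apart, had 0.39 (SE 0.35, adjusted p = 0.514), with 23.7 to 62.7 CPM in controls and 31.7 to 102 CPM on cholate.

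Mki67 and Top2a, both used as markers of dividing cells, did not pass with diet as the only term. Mki67 stood at 217, 199, 189, 189.9 and 119.9 CPM in controls and at 195, 299, 337, 226 and 195 CPM on cholate. Cholate rats 3 and 11 lay within the control range, and the change was 0.45 (SE 0.20, adjusted p = 0.166). With the library division as a term the change stayed at 0.45 and passed the second rule (adjusted p = 0.0405), in a fit where 17.3% of all genes rose. Topoisomerase Top2a, which untangles chromosomes, stood at 189.7, 199.8, 180.1, 174 and 106 CPM and then at 151, 229, 292, 152 and 113 CPM. Of its cholate rats 3 lay within the control range and 2 above it (0.14, SE 0.26, adjusted p = 0.775), and the sign of its change turned without cholate rat 7. Both genes have over 4000 exonic bases and stood lowest in control rat 9, 1 of the 4 libraries that stood apart.

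**Figure D2:**
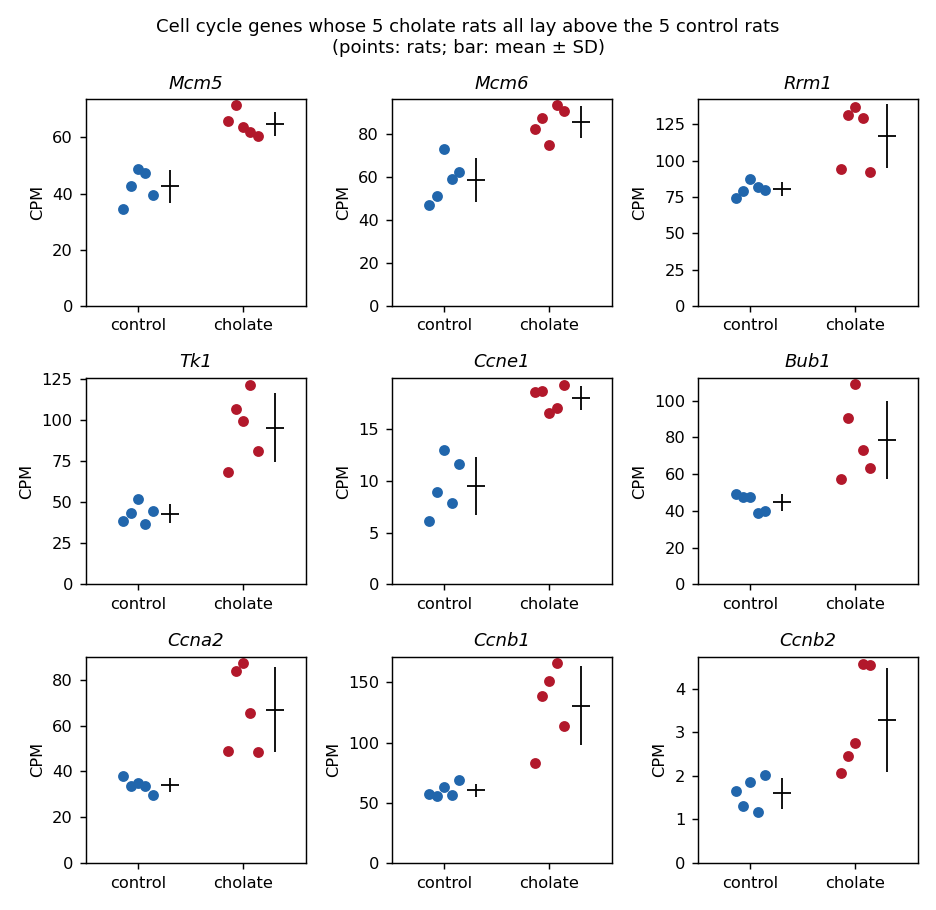
CPM in each rat for the 9 genes with no overlap between the diets, with points for rats and a bar for mean ± SD on axes that start at 0. In Ccne1 and Mcm5 the cholate rats lie close together, and in Ccna2, Ccnb1 and Bub1 they spread more widely than the controls.

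The diets did not overlap, with cholate higher, for 9 of the 38 genes (Mcm5, Mcm6, Rrm1, Tk1, Ccne1, Ccna2, Ccnb1, Ccnb2 and Bub1), against 6.30% of all genes tested. None lay wholly lower on cholate, against 6.80%. In a further 13 genes exactly 4 of the 5 cholate rats lay above every control, and all 13 were mitotic. The cholate rat that did not was rat 3 in each of the 13. How many of all genes tested show either pattern was not counted, so it is not known whether these counts are particular to mitotic genes. Cholate rat 3 was the lowest cholate rat for 20 of the 24 mitotic genes and for 4 of the 11 replication genes. How often it was the lowest over all genes was not counted either. Rat 8 was the highest cholate rat for 14 mitotic genes and rat 7 for 9. Without cholate rat 3 the median change of the mitotic genes was 0.89 and 16 of 24 rose. Omitting control rat 1, 2 or 6 left 4 mitotic genes that rose, and omitting cholate rat 4 or 7 left 7. In those fits 3.32% to 5.03% of all genes rose, against 6.48% with all rats.

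**Figure D3:**
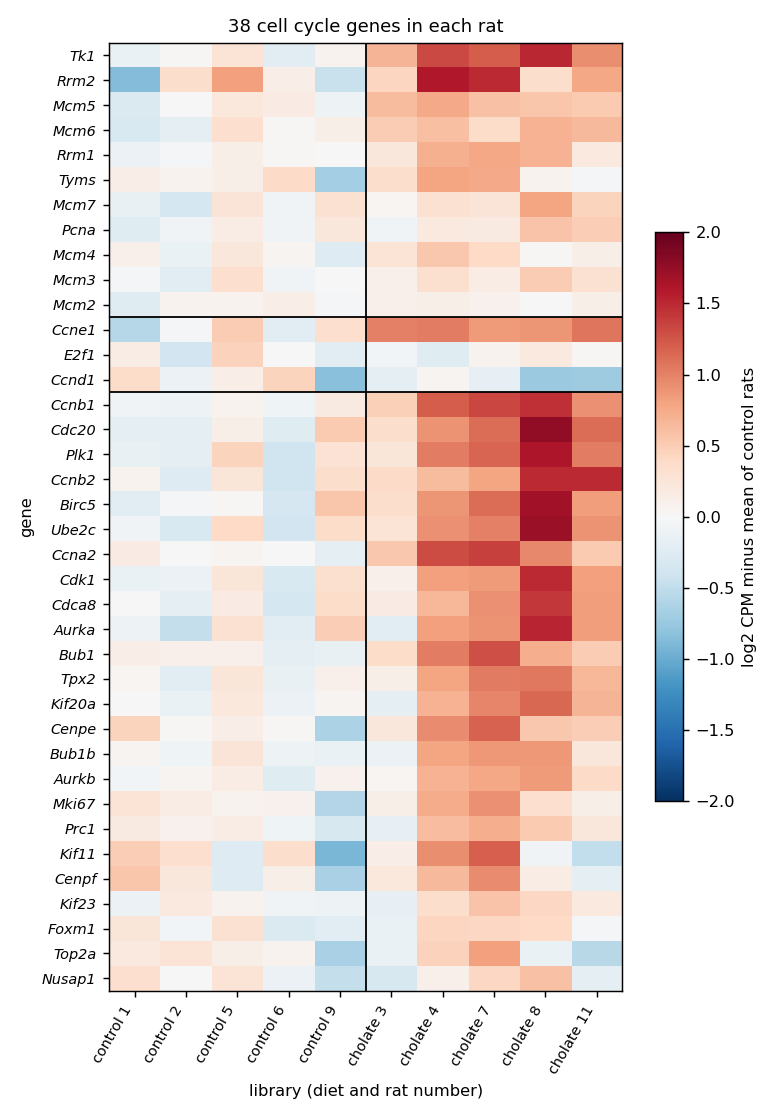
Level of each of the 38 genes in each rat, as log2 CPM minus the mean of the 5 controls, with genes in rows by role and rats in columns by diet. Cholate rat 3 is paler than the other cholate rats over the mitotic genes, and control rat 9 is low for Mki67, Top2a and Kif11.

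The mean over the genes of a role in each rat, taken as log2 CPM minus the control mean, set the roles side by side. Over the 11 replication genes the controls ran from -0.20 to 0.26 and the cholate rats from 0.30 to 0.66, without overlap. Over the 24 mitotic genes the controls ran from -0.14 to 0.15 and the cholate rats from 0.11 to 0.94, and cholate rat 3, at 0.11, lay within the control range. The other 4 cholate rats lay between 0.47 and 0.94.

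Within each rat, the mitotic mean minus the replication mean ran from -0.19 to 0.28 in controls and from -0.19 to 0.42 on cholate, so the diets overlapped. It was above 0 in cholate rats 4, 7, 8 and 11 (0.11, 0.37, 0.42 and 0.06) and below 0 in rat 3 (-0.19). The median changes of 0.74 and 0.39 are thus given as descriptions, and the difference between the roles was not tested. Of the replication genes 4 of 11 rose and of the mitotic genes 13 of 24. Without control rat 1, 2 or 6 or cholate rat 4, 2 replication genes rose, and 3.32% to 4.33% of all genes did. With the library division as a term 7 of 11 and 17 of 24 rose, and among the 6 libraries of the larger set 9 of 11 and 13 of 24. Of all genes tested 17.3% and 18.7% rose in these 2 fits. The medians there were 0.48 for replication and 0.76 for mitosis.

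**Figure D4:**
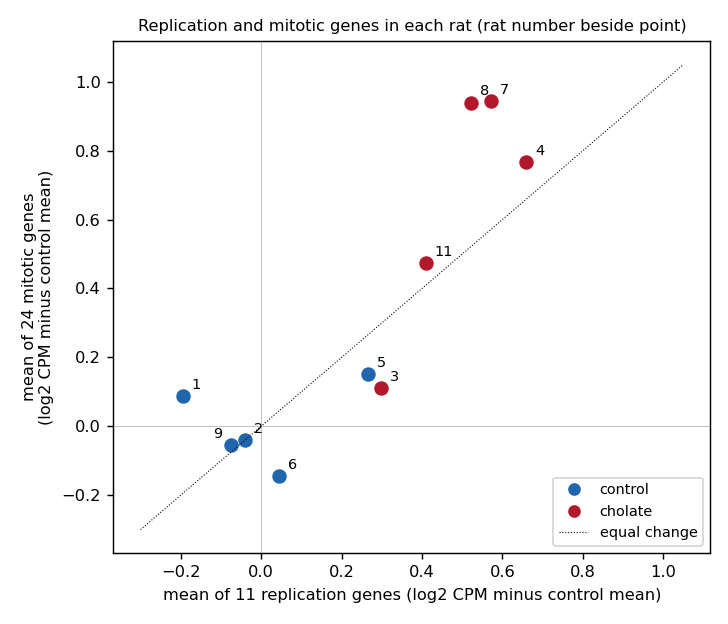
Mean over 24 mitotic genes against mean over 11 replication genes in each rat, both as log2 CPM minus the control mean, with the dotted line marking equal change. Cholate rats 7 and 8 lie furthest above the line, and cholate rat 3 lies beside control rat 5.

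The mitotic genes were also described by length. A division at 4000 exonic bases, chosen after the values were seen, gave 16 shorter genes, of which 12 rose (median 0.85), and 8 longer genes, of which Bub1 alone rose (median 0.42). With the library division as a term 13 of 16 and 4 of 8 rose, and the medians remained at 0.85 and 0.41. Cholate rat 8, with few reads from long genes, had a mean of 1.23 over the shorter and 0.35 over the longer mitotic genes, and cholate rat 11 had 0.70 and 0.01. Cholate rat 7, from the larger set, had 0.94 and 0.95, and rat 4 had 0.78 and 0.75. Control rat 9 had 0.16 over the shorter and -0.49 over the longer genes. Among the shorter genes Nusap1, Kif23 and Prc1 had small changes (0.13, 0.29 and 0.41), and Bub1, at 0.82, was a longer gene with a large one. The part of transcript length in these values was not tested.

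Markers of the cells that the preparation could hold were read beside these results. Summed over 8 markers of surface colonocytes, which have left the cycle, the controls ran from 4393 to 6110 CPM and the cholate rats from 8552 to 14099 CPM, and 4 of the 8 rose. Over 10 markers of crypt base stem cells the sums were 271 to 323 CPM in controls and 202 to 265 CPM on cholate, again without overlap. Ephb3, the most abundant of the 10, held 110 CPM of these sums on average in controls and 66.5 CPM on cholate, and the sums without it overlapped. Of those 10, Smoc2 and Ephb3 fell, Olfm4 rose from 0.0238 to 1.91 CPM on average, and Lgr5 had a change of -1.17 that did not pass (adjusted p = 0.0672). Cholate rat 3 had the highest stem cell sum on cholate, 265 CPM, and a colonocyte sum of 9765 CPM, second lowest on cholate.

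General epithelial markers were abundant in all rats (12359 to 17169 CPM and 15245 to 22357 CPM over 8 genes) and match the labelled tissue. T and NK cell markers, whose cells can divide on activation, summed to 10.9 to 27.2 CPM in controls and 7.39 to 26.0 CPM on cholate, with Cd8b, Gzmb and Nkg7 under 1 CPM in every rat, and 1 of the 5 tested, Cd7, fell. Markers of B and plasma cells stood at 1.31 to 5.33 and 1.57 to 5.89 CPM, and of macrophages at 203 to 277 and 212 to 273 CPM, nearly all of it Cd14. Sums for smooth muscle (42.4 to 61.9 against 8.17 to 13.5 CPM, mostly Des) and endothelium (3.84 to 7.86 against 0.759 to 3.45 CPM) were lower on cholate without overlap. Fibroblast markers stood at 1.75 to 3.79 against 0.380 to 3.24 CPM, with Col1a2 at 0 in all rats, and goblet cell sums overlapped widely. Col1a1, the one fibroblast marker tested, fell from 2.95 to 0.472 CPM without overlap (-2.56, adjusted p = 0.01), and the highest cholate sum, in rat 4, held 1.58 CPM of Col3a1. The part of any of these cell types in the cell cycle result was not tested.

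Other genes of the cell cycle were read from 11 lists by role, 150 genes found of 152 listed and 149 tested. Of these 18 rose and 3 fell, with a median change of 0.36, against 6.48% of all genes tested that rose and 7.28% that fell. The same shares stand beside the counts of each list below. Cenpa and Shmt1 passed the strict rule. By the second rule 21 passed in either direction with all rats. Omitting control rat 1 left 5, control rat 2 left 8, control rat 6 or cholate rat 4 left 6 and cholate rat 7 left 11. In those fits 3.32% to 5.03% of all genes rose. With the library division as a term 61 passed (54 rose and 7 fell). Among the 6 libraries of the larger set 63 passed (55 and 8), and among the other 4 libraries the number was 5, all higher. Over all genes, 2142 rose and 2274 fell of 12385 with the term. Among the 6 libraries 2364 rose and 2501 fell of 12648, and among the 4 these were 248 and 223 of 12144. The totals in either direction thus lay near the share of all genes, but most of these cell cycle genes that passed were higher.

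Among lists of early S phase, of 13 genes of origin licensing and firing 4 rose (median 0.51): Orc1 (0.90, adjusted p = 0.0221) and Orc6 (0.60, adjusted p = 0.043) of the origin recognition complex, and Cdc7 (0.91, adjusted p = 0.0438) and its activator Dbf4 (0.94, adjusted p = 0.029), the kinase that fires origins. Of the 10 fits that left out 1 rat, these calls held in 5 for Orc1, 5 for Dbf4, 3 for Cdc7 and 2 for Orc6. Of 19 genes of DNA polymerases and the replication fork none rose and 1 fell (median 0.16), the polymerase delta subunit Pold3, from 27.3 ± 2.70 to 17.9 ± 1.89 CPM without overlap (-0.61, adjusted p = 0.0129). Of 10 further genes of nucleotide supply 1 rose (median 0.37). It was Shmt1, a folate enzyme that feeds thymidylate synthesis, which stood at 16.8, 12.7, 18.9, 15.3 and 20.6 CPM in controls and 32.9, 44.6, 40.3, 43.8 and 35.8 CPM on cholate (1.23, SE 0.16, adjusted p = 0.0015). The strict call of Shmt1 held in all 10 fits that left out 1 rat. With the library division as a term, 9 of 13 licensing genes rose, 7 of 19 fork genes rose and 2 fell, and 5 of 10 nucleotide supply genes rose, at medians of 0.50, 0.16 and 0.35. Of all genes tested 17.3% rose with that term.

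Among 18 G1 cyclins, kinases and E2F partners 1 rose (median 0.08), the factor Mybl2, which acts on late cell cycle genes (0.82, adjusted p = 0.021). Of 12 tested brakes of the cycle none rose and 2 fell (median -0.31), the antiproliferative genes Btg1, from 199.5 ± 22.0 to 146 ± 15.8 CPM (-0.45, adjusted p = 0.0282), and Btg2, from 224 ± 63.9 to 135 ± 29.6 CPM (-0.73, adjusted p = 0.0385). Btg1 did not overlap between the diets, whereas for Btg2 cholate rat 3, at 184 CPM, lay within the control range. Of the 18 genes 3 rose and 1 fell with the library division as a term, and of the 12 brakes none rose and 4 fell. Of all 12385 genes 2142 rose and 2274 fell with that term.

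Among the lists of mitosis, of 18 genes of the kinetochore and checkpoint 7 rose (median 0.56), led by Cenpa, the histone that marks centromeres. Cenpa stood at 5.68, 5.33, 5.33, 4.68 and 5.39 CPM in controls, within about 1 CPM, and at 8.16, 15.8, 13.2, 20.2 and 14.7 CPM on cholate (1.45, SE 0.23, adjusted p = 0.00305), though the strict call was lost without control rat 1, 2 or 6 or cholate rat 4. The checkpoint kinase Ttk (0.71, adjusted p = 0.0112), the kinetochore subunit Nuf2 (0.71, adjusted p = 0.0194) and the checkpoint protein Mad2l1 (1.02, adjusted p = 0.021) rose too. Of 11 genes of G2 and mitotic entry 3 rose (median 0.43), the phosphatase Cdc25c that activates Cdk1 (0.65), Gtse1 (0.86) and the centrosomal kinase Nek2 (0.96), with adjusted p from 0.0288 to 0.0472. Of these lists 10 of 18 and 5 of 11 rose with the library division as a term, against 17.3% of all genes tested.

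Of 14 spindle motors and microtubule factors 1 rose (median 0.49), Hmmr (0.98, adjusted p = 0.0173), and of 9 genes of cytokinesis 1 rose (median 0.61), Cep55, which recruits the machinery of abscission (0.78, adjusted p = 0.0387). None of 9 genes of condensin and chromosome structure passed (median 0.33), and the smallest adjusted p was that of Smc4 (0.32, adjusted p = 0.23). None of 16 genes of anaphase and mitotic exit passed (median 0.23), and the nearest was securin, Pttg1 (0.90, adjusted p = 0.0764). The same fit with the division raised these counts to 6 of 14 spindle genes, 4 of 9 cytokinesis genes, 1 of 9 condensin genes and 4 of 16 exit genes. It also raised the share of all genes that rose, from 6.48% to 17.3%.

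**Figure D5:**
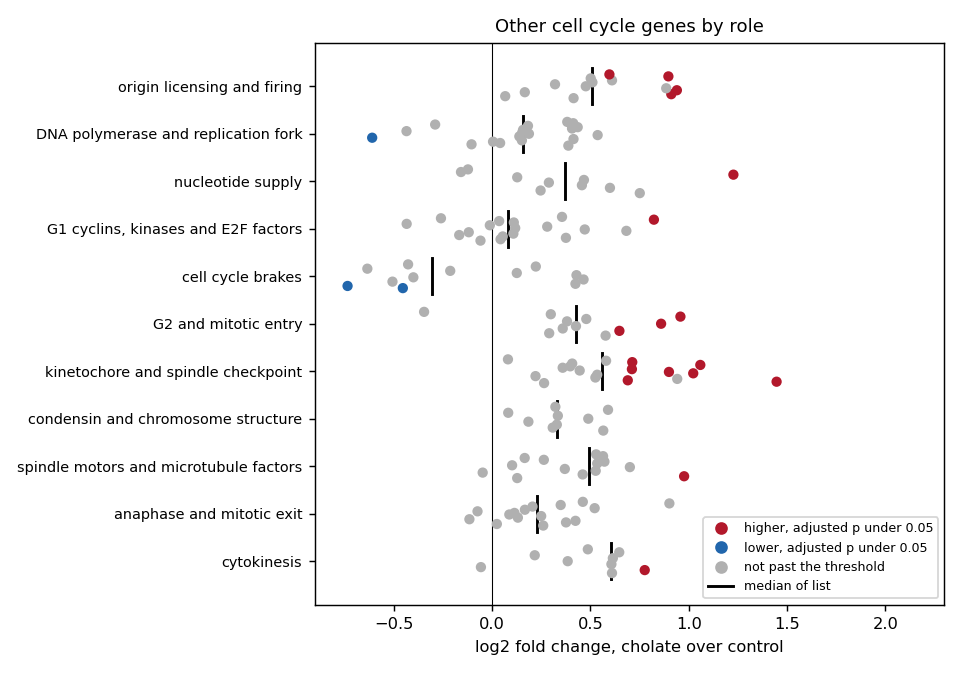
Log2 fold change of cholate over control for 149 other cell cycle genes in 11 lists, with a point per gene, colour for the test passed and a bar for the median. The cell cycle brakes have the one median below 0, and the points that passed lie mostly among licensing and kinetochore genes.

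Per kilobase of exon in the controls, Pcna was followed by Cdk1 (46.0 CPM per kilobase), Top2a (34.2), Cdc20 (33.8) and Ube2c (31.1). The lowest above Rrm2 were Ccnb2 (1.09), E2f1 (3.30) and Cenpe (4.37). Tk1 stood at 19.0 CPM per kilobase in controls and 42.1 on cholate, and Ccnb1 at 18.4 and 39.9. On the shorter coding length that the authors' table lists, the control level of Tk1 was 61.6 CPM per kilobase, so this order depends on the length used.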

How the data were processed

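Poly(A) RNA of 10 rats, 5 per diet, was sequenced from strand-specific libraries, per the labels' protocols. Reads were demultiplexed with bcl2fastq 1.8.4, aligned to rn6 with BWA 0.7.12-r1039 and scaled with edgeR 3.16.2, per the submitters' processing notes. The sources used here name no counting program and no strand mode. Raw counts, deposited by the authors for each gene and rat, were used for all tests. The authors' normalized signal (CPM on TMM library sizes) served only as a check of scaling. The authors' own criteria, a fold over 2 at a 1% false discovery rate, form the strict rule.

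In R 4.3.3 with edgeR 4.0.16, genes were filtered with filterByExpr, scaled by TMM and tested by the quasi-likelihood F test with robust estimation and diet as the only term. Standard errors are approximate, from the fold change and F. The biological coefficient of variation common to all genes was 34.3%. The test was checked on simulated data. A count of 0 in a library allows up to 3 counts, which is 0.0616 to 0.228 CPM, and this floor covers counting error only. The labels name separate rats, 1 per library. Exon lengths came from the deposited annotation. DESeq2 1.42.0, limma 3.58.1, other scalings and filters, and leaving out each rat were alternatives.

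The genes and lists were chosen with earlier results of these data known. Named genes are all 38, and from each other list up to 4 called genes with the smallest adjusted p, or the one with the smallest where none was called.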

Additional observations from a re-analysis of the deposited data

Results flagged for a closer look

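Each diet's 5 values of each of the 38 genes, 76 groups in all, were searched for a value far from the rest, by Dixon's ratio of gap to range at its 95% critical value. Chance gives about 1 such group in 20, and 2 were found. Control rat 9 had 119.9 CPM of Mki67, against 188.5 CPM in the next lowest control rat. The same rat had 106 CPM of Top2a, against 173.8 CPM in the next lowest. Control rat 9 is also 1 of the 4 libraries with fewer reads from long genes. Without it the log2 change of neither gene passed the test.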

How the results depend on the processing

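No paired analysis was possible because the diets have no rat number in common. Of 1156 values of 58 named genes under the alternatives, 926 kept direction and side of the threshold of adjusted p under 0.05, 191 lost the call, 33 gained it and 6 turned sign. E2f1, with -0.03 in all rats, ran from -0.12 to 0.094 when 1 rat was omitted, above 0 for control rats 1 and 5 and cholate rat 4 (0.000875, 0.094 and 0.029), and had 0.020 among the 6 libraries of the larger set. Top2a ran from -0.070, on omitting cholate rat 7, to 0.29, and had -0.14 among the other 4 libraries. Neither gene passed with all rats. No scaling moved the median of all genes by as much as 0.1.

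Over the 10 fits that left out 1 rat, the strict rule called 168 to 450 of all genes, 0 to 5 of the 38 and 1 to 4 of the other cell cycle genes. The second rule called 7 to 21 of the 38, 2 to 4 replication genes, 4 to 16 mitotic genes and 5 to 28 other cell cycle genes. Of all genes it called 3.32% to 8.41% higher in these fits. The medians ran from 0.53 to 0.65 for the 38, 0.39 to 0.49 for replication and 0.64 to 0.89 for mitosis, and replication without the Mcm genes had 0.54.

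Counts under the strict rule were 398 of all genes and 2 of the 38. They became 788 and 7 by DESeq2, 1157 and 8 by limma-voom with quality weights, 829 and 6 with the library division as a term, 1003 and 8 among the 6 libraries of the larger set, and 112 and 0 among the other 4. Requiring a mean of 5 CPM gave 241 of all genes. The other cell cycle genes, 2 by the strict rule, became 4 by DESeq2, 9 by limma-voom, 8 among the 6 libraries and 0 among the 4. By the second rule they went from 21 to 34 by DESeq2, 68 by limma-voom, 61 with the division as a term, 63 among the 6 libraries and 5 among the 4. The share of all genes that rose by this rule went from 6.48% to 11% by DESeq2, 16.5% by limma-voom and 17.3% with the term. It was 18.7% among the 6 libraries and 2.04% among the 4. Replication genes went from 4 to 8 by limma-voom, 7 with the term, 9 among the 6 libraries and 1 among the 4. Among the 4 libraries 4 of the 38 and 3 mitotic genes passed. The fits that use the library division were chosen after seeing the data, and the 4 libraries hold 2 rats per diet, which limits what they can call.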
